A study of Mus musculus with 20 samples.

Results

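Hepatic amino acid catabolism and the urea cycle were followed through 40 enzyme genes in livers of male mice that carried or lacked both liver X receptors (LXR) and ate normal chow or a Western diet. The genes were listed by name from these pathways, with earlier results of these data known. Probes were matched to them by RefSeq transcript where this was possible, and otherwise by current or older symbol. Of the 40 genes, 39 had a probe, among 27573 gene names on the array, and all 39 passed the filter on dim probes. Amt, a component of the glycine cleavage system, was not analysed here. RNA from a fragment of the large lobe of each liver was hybridised to its own single-colour array. The 4 groups of 5 mice were wild-type mice on normal chow, LXR alpha/beta double knockout mice on normal chow, wild-type mice on Western diet and double knockout mice on Western diet. All mice were males of 28 weeks on a mixed Sv129/C57Bl6J background. The diets, the 2016 Teklad Global 16% Protein chow or the TD.88051 Western diet, were given for 7 weeks with free access to food. The labels name no tissue-specific driver for the deletion, and the protein content of the Western diet is not given in the sources used here. An effect of protein intake and an effect of the other components of the diets therefore cannot be told apart.

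The liver removes most of the amino acids that arrive from the gut. Transaminases pass their nitrogen to glutamate, glutamate dehydrogenase and glutaminase release it as ammonia, and the urea cycle turns ammonia into urea in hepatocytes around the portal vein. Hepatocytes around the central vein hold glutamine synthetase, which binds the ammonia that escapes. The carbon skeletons are oxidised by separate routes for each amino acid, and many of these enzymes are induced by glucagon, by glucocorticoids and by dietary protein. The liver X receptors are nuclear receptors that sense oxidised cholesterol and govern cholesterol and fatty acid metabolism.

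Levels are given as scaled log2 signal, the log2 of the processed intensity minus the log2 of the 75th percentile of the same array, so that a level of 0 lies at that percentile. Differences are log2 differences between group means ± SE from limma with 5 mice per group, and a gene is said to have risen or fallen only where the Benjamini-Hochberg adjusted p over all genes tested was under 0.05. The 75th percentile ran from 170.3 to 330.8 intensity units in the 15 arrays of the other groups and from 339.7 to 435.1 in knockout mice on Western diet, and the share of probes above background ranged from 53.6% to 67.2%. Correlations between replicates of a group, across genes, were 0.952 to 0.991. The genotype labels were borne out by the deleted genes. Nr1h3, which encodes LXR alpha, was at 4.53 ± 0.14 (SD, n = 5) in wild-type and -4.52 ± 0.54 in knockout mice on normal diet, and Nr1h2, which encodes LXR beta, was at 0.85 ± 0.14 and -4.54 ± 0.73. On Western diet Nr1h3 was at 4.29 ± 0.32 and -4.71 ± 0.73, and Nr1h2 at 0.69 ± 0.10 and -4.73 ± 0.69.

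RefSeq promoters on build GRCm38.p6 were available for 31 of the 40 genes, with 34 promoters in all; Cps1, Asl, Arg1, Gls2, Gpt, Kynu, Sds, Cth and Cdo1 had no entry. The 250 bases before the start are shown for the 4 genes on which the diet results below turn. Glul fell on Western diet in both genotypes but further in knockout mice, Oat fell in both, Tdo2 fell in knockout mice, and Csad went in opposite directions in the 2 genotypes. Glul lies on the plus strand and the others on the minus strand, each sequence is written 5′ to 3′ on the strand of its gene, and Csad is shown by the farther upstream of its 2 listed starts. Capitals mark letters that match a searched motif on either strand.
Glul promoter, chr1:153899679-153899928, plus strand: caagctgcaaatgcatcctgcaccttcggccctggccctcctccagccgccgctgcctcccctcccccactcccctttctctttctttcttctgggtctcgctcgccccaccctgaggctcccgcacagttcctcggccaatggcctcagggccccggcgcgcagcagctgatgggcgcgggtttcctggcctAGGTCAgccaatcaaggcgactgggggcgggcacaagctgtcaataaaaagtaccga
Oat promoter, chr7:132576399-132576648, minus strand: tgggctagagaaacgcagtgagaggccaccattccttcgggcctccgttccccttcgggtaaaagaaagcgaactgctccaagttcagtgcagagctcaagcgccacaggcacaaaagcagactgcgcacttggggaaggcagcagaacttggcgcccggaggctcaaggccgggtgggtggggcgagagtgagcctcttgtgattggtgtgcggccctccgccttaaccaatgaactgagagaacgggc
Tdo2 promoter, chr3:81975729-81975978, minus strand: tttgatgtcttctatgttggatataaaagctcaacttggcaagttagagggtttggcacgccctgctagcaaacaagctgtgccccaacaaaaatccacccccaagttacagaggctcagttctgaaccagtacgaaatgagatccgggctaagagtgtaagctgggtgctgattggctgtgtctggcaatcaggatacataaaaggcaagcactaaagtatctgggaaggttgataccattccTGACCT
Csad promoter, chr15:102205053-102205302, minus strand: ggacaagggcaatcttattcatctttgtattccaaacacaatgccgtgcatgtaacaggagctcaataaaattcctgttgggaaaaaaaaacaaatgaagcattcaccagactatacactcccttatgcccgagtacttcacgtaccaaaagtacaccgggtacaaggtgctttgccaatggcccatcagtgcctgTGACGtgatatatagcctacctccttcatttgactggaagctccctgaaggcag
The letters searched on both strands were AGGTCA (the half-site of many nuclear receptors), TGTTCT (a glucocorticoid receptor half-site), TTGCNNAA (C/EBP), TGACG (a CRE half-site) and CTTTGA (TCF/LEF). AGGTCA was present in 11 of the 34 promoters (32.4%) and in 14% of all 32851 promoters. It was found in Glul, 57 to 52 bases before the start, in Tdo2 on the opposite strand, 6 to 1 bases before the start, and also in Aass, Bckdhb, Got1, Got2, Haao, Hgd, Nags, Uroc1 and Amt. In Amt and Haao this match overlapped a CTTTGA match. TGACG was present in 4 of 34 (11.8%, against 17.8% of all promoters), in Csad 54 to 50 bases before the start. TGTTCT was in 2 of 34 (5.88%, against 16.1%), TTGCNNAA in 4 of 34 (11.8%, against 9.56%) and CTTTGA in 7 of 34 (20.6%, against 13.8%). The Oat window held none of the 5 motifs, which says only that these letters are not in these 250 bases.

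Most of these enzymes fell on Western diet in knockout mice, and fewer did in wild-type mice. In knockout mice, 35 of the 39 genes were lower on Western than on normal diet and 0 were higher, where 27.8% of all genes tested were lower and 22.6% were higher. All 39 differences were below 0, with a median of -1.23, against -0.12 over all genes. In wild-type mice 8 of the 39 genes fell on Western diet and 1 rose, where 2.71% of all genes were lower and 3.25% higher, with a median of -0.36 against -0.03. Of the 39 wild-type differences 36 were below 0. At an unadjusted limma p under 0.05, 21 genes were lower and 1 higher in wild-type mice, against 36 and 0 in knockout mice. The diet difference itself differed between the genotypes for 23 genes, all with a lower interaction value (the diet difference of knockout minus that of wild-type mice), where 14.7% of all genes had a lower and 12.9% a higher interaction. At an unadjusted p under 0.05, 27 genes had a lower and 0 a higher interaction. The share of all genes at that looser threshold is not given, here or beside the unadjusted counts below. The median interaction was -0.74, against -0.08 over all genes.

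Between genotypes on Western diet, 29 of the 39 genes were lower in knockout mice and 2 were higher, where 32.7% of all genes tested were lower and 25% were higher. The median difference was -0.67, against -0.16 over all genes. On normal diet 3 genes were lower and 5 higher in knockout mice, where 8.37% of all genes were lower and 11.3% higher, and the median was -0.07 against -0.06. For 17 of the 39 genes every knockout mouse on Western diet lay below all 15 other mice, which held for 12.3% of all genes. These 17 were Otc, Ass1, Glul, Got2, Hpd, Hgd, Fah, Qdpr, Tdo2, Kmo, Kynu, Haao, Hal, Uroc1, Cbs, Bckdha and Aass. The 2 genotype comparisons and the 2 diet comparisons share groups of mice, so that a low level in knockout mice on Western diet enters the Western genotype difference, the knockout diet difference and the interaction alike.

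**Figure D1:**
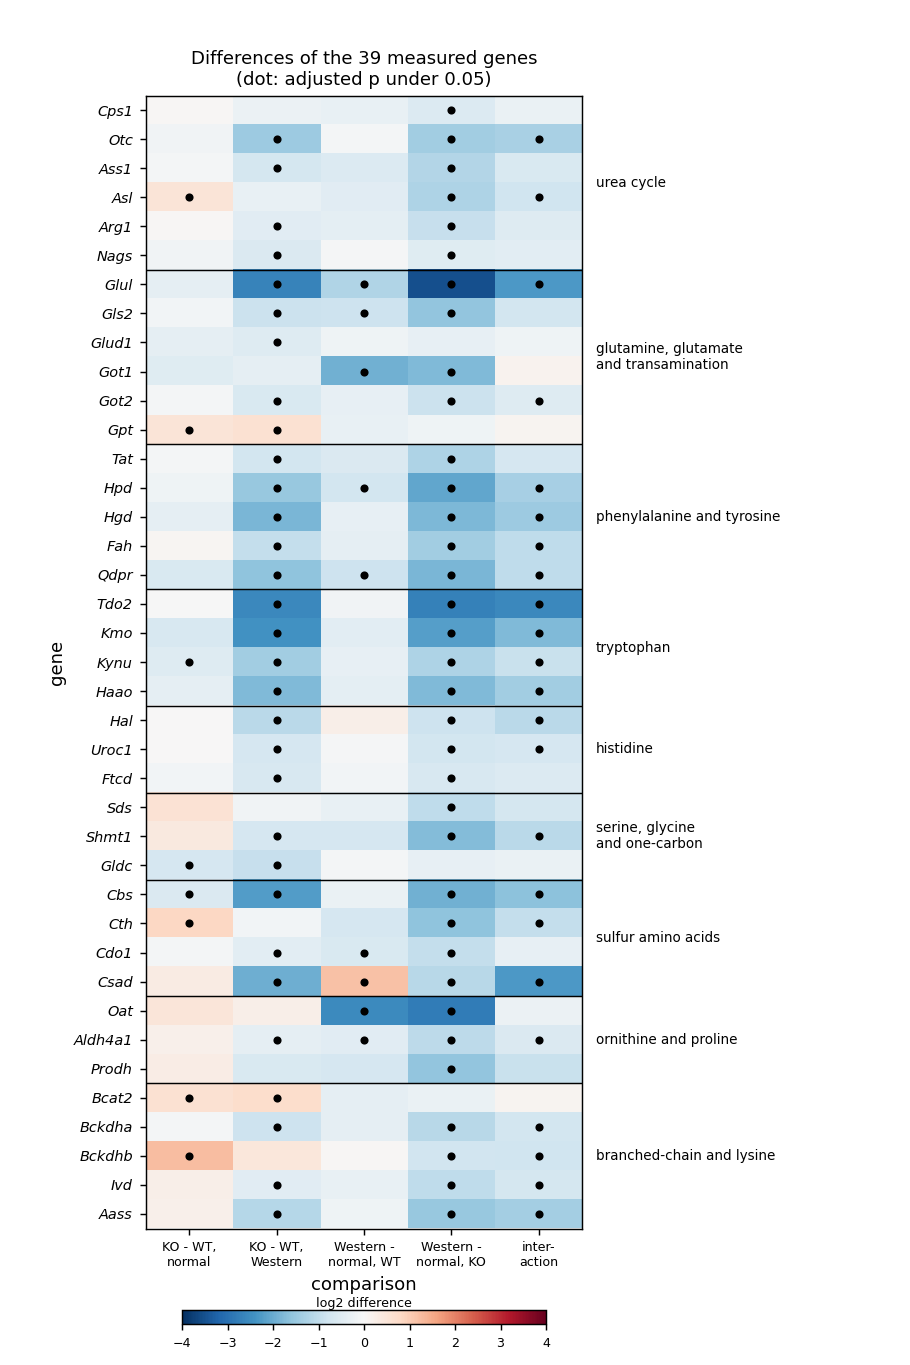
Log2 differences of the 39 measured genes (rows, grouped by pathway) in 5 comparisons (columns), coloured from blue (lower) to red (higher), with a dot where the limma adjusted p was under 0.05. The column for diet in knockout mice holds 35 dots, all on blue, and the column for diet in wild-type mice holds 9.

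These counts and medians depended on how arrays were put on a common scale. Under scaling to the array median, quantile normalization and the deposited series matrix, 32, 29 and 30 of the genes were lower on Western diet in knockout mice. Their median differences were -1.17, -0.82 and -0.84, against -0.06, -0.01 and -0.02 over all genes. For genotype on Western diet the medians were -0.76, -0.33 and -0.37, against -0.25, -0.08 and -0.07. Each array was also scaled to the mean of 13 hepatocyte marker genes, a choice made after the data had been seen. In knockout mice 20 genes were then lower and 3 higher on Western diet, with a median of -0.45. Over all genes that median was 0.66, and 90.2% of calls were higher. Under the same scaling the genotype difference on Western diet had 11 lower and 6 higher, with a median of 0.02. Over all genes the median was then 0.53, and 87.6% of calls were higher. The marker genes had themselves fallen. Of 15 listed hepatocyte markers 13 passed the filter, and of these 12 were lower in knockout than in wild-type mice on Western diet (median -0.42) and 13 were lower on Western than on normal diet in knockout mice (median -0.55). In RNA from whole liver, fewer hepatocytes and less RNA per hepatocyte cannot be told apart.

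Marker genes of other liver cells moved with the same group. In the genotype comparison on Western diet, 25% of all genes tested were higher and 32.7% lower. Macrophage markers were higher in knockout than in wild-type mice on Western diet for 14 of 20 genes and lower for 5, and their summed signal, in multiples of the 75th percentile and over the markers with a value on every array, was 347.6 to 467.1 in knockout mice against 59.3 to 207.3. Stellate cell and fibroblast markers were higher for 11 of 14, with a sum of 148.1 to 299 against 17.9 to 30.2. Cholangiocyte markers were higher for 8 of 9, with a sum of 152.3 to 214.9 against 34.7 to 147.3, and neutrophil markers for 8 of 9, with 12.4 to 51.6 against 1.86 to 10.9. Endothelial markers were higher for 3 of 10 and lower for 1, and lymphocyte markers higher for 1 and lower for 2 of 11. Hepatocyte markers summed to 1515 to 1847 in the knockout mice of this diet and 2099 to 2590 in their wild-type counterparts, without overlap. The part of these shifts in the fall of the enzymes was not tested beyond the scaling above.

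**Figure D2:**
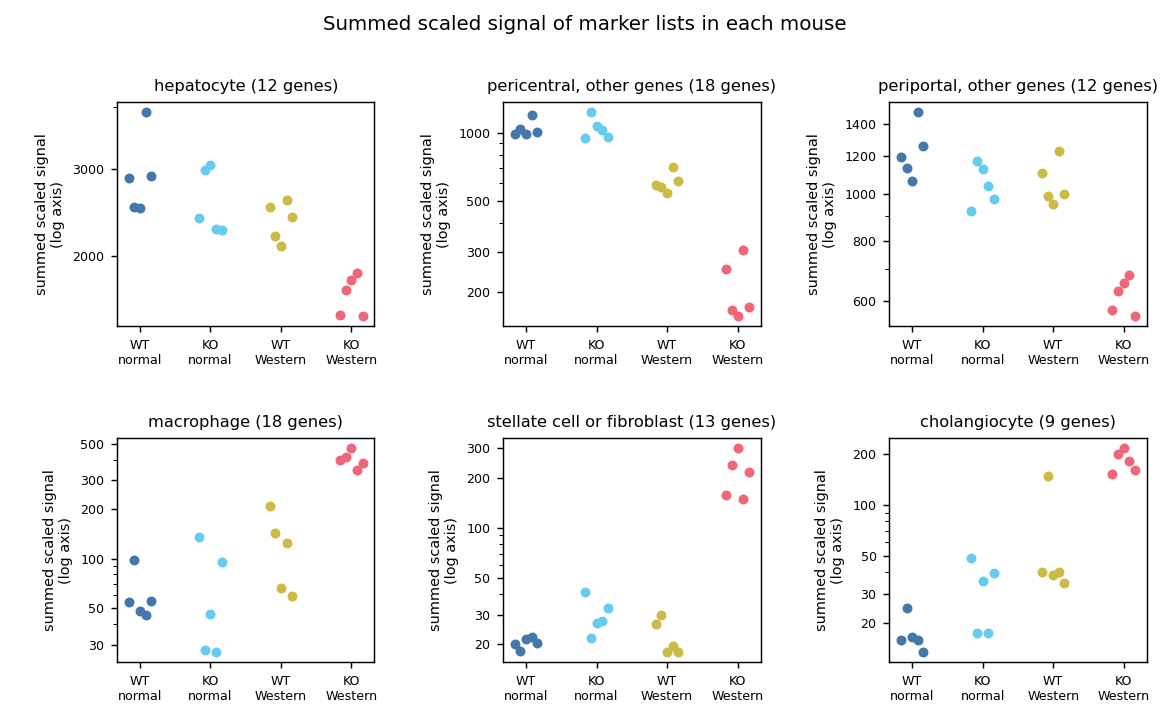
Summed scaled signal of 6 marker lists in each of the 20 mice (points; log axes; colours and columns give the 4 groups). In knockout mice on Western diet the hepatocyte, pericentral and periportal sums lay below those of the other mice, and the macrophage, stellate and cholangiocyte sums above them. The hepatocyte and periportal lists share a gene, and a sum weights the brightest genes most, so that those panels may not be separate observations.

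All 6 measured genes of the urea cycle fell on Western diet in knockout mice and 0 passed the test in wild-type mice (limma), where 3 were lower at an unadjusted p under 0.05. Otc, the mitochondrial enzyme that joins carbamoyl phosphate to ornithine, separated the groups most widely. Its level in the 5 knockout mice on Western diet was 4.03, 3.80, 3.48, 4.38 and 3.58, against 4.98, 5.08, 5.47, 5.43 and 5.30 on normal diet. Wild-type mice had 5.27, 5.38, 5.37, 5.54 and 5.35 on normal diet, and 5.12, 5.30, 5.62 and 5.13 in the 4 Western diet mice with a value. The knockout mice on Western diet thus lay below all the others, and the other 3 groups overlapped. Otc fell by 1.40 ± 0.16 with diet in knockout mice (limma adjusted p = 1.28e-06) and differed by -0.09 ± 0.17 in wild-type mice (adjusted p = 0.805), with an interaction of -1.31 ± 0.23 (adjusted p = 0.000462).

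Ass1 and Asl, which form and split argininosuccinate, fell by 1.16 ± 0.19 and 1.24 ± 0.16 in knockout mice. Asl had started from a higher level in these mice: on normal diet it was at 6.09 ± 0.33 in knockout and 5.58 ± 0.22 in wild-type mice, a difference of 0.51 ± 0.16 (limma adjusted p = 0.0308). On Western diet it was at 4.85 ± 0.21 and 5.14 ± 0.21 and the genotype difference did not pass the test (adjusted p = 0.129). The call on normal diet ended when any 1 of 6 arrays was left out (wild-type mice 1, 3 and 5 and knockout mice 3, 4 and 5 on normal diet), with differences of 0.40 to 0.60 over all single omissions and adjusted p up to 0.0848.

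Cps1, which makes carbamoyl phosphate and controls entry into the cycle, moved least of the 6 between diets in knockout mice apart from Nags, which makes its activator N-acetylglutamate. Cps1 was at 7.20 ± 0.31 and 6.66 ± 0.19 on normal and Western diet (difference -0.54 ± 0.14), and Nags at 4.96 ± 0.30 and 4.48 ± 0.11 (-0.49 ± 0.15). Both calls were lost under median scaling, quantile normalization, normexp, hepatocyte scaling and in the series matrix. The Cps1 value was 0.05 under quantile normalization and 0.24 under hepatocyte scaling, and the Nags value was 0.30 under hepatocyte scaling. In a fit over all probes, a dimmer Nags probe above background on all 20 arrays fell by 0.91 ± 0.18. The place of Nags among the 6 thus depended on the probe. Arg1, the cytosolic enzyme that releases urea, fell by 0.92 ± 0.20 in knockout mice, with 4 mice in each knockout group after an outlier spot was dropped and with overlap of the groups. That call was lost under quantile normalization (-0.42), normexp (-0.53) and hepatocyte scaling (-0.21). Its genotype difference on Western diet, -0.47 ± 0.19 (adjusted p = 0.0429), ranged from -0.64 to -0.30 over all single omissions. It was lost without wild-type mouse 2, 3 or 5 on normal diet, wild-type mouse 1, 4 or 5 on Western diet or knockout mouse 1, 3 or 5 on Western diet.

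Among enzymes of glutamine and glutamate, Glul changed most. Glul encodes glutamine synthetase, a marker of the hepatocytes that ring the central vein. Wild-type mice had levels of 6.24, 6.49, 6.12, 6.42 and 5.84 with normal chow, and of 4.60, 4.24, 5.27, 5.42 and 5.47 with the Western diet. Knockout mice had 5.83, 6.34, 5.73, 5.55 and 5.85 with normal chow, against 2.93, 2.20, 2.17, 2.01 and 2.33 with the Western diet. On normal diet the genotypes overlapped, on Western diet each genotype lay below its own controls, and knockout mice lay below wild-type mice with no overlap. The diet difference was -1.22 ± 0.23 in wild-type mice (limma adjusted p = 0.00341) and -3.53 ± 0.23 in knockout mice, an 11.6-fold lower signal (adjusted p = 1.97e-09). The interaction was -2.31 ± 0.33 (adjusted p = 5.92e-05), and within the 3 slides that held all 4 groups it ranged from -2.69 to -1.31. In a fit over all probes the other Glul probes fell as well in knockout mice, by 4.40 ± 0.24 and 2.61 ± 0.33.

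Got1, the cytosolic aspartate aminotransferase, fell in both genotypes. Its levels in wild-type mice were 5.49, 6.71, 5.58, 6.66 and 5.36 with normal chow, against 4.04, 3.60, 3.84, 4.69 and 4.05 on Western diet. In knockout mice they were 5.49, 6.04, 6.09, 4.59 and 5.10, and 4.32, 3.37, 3.09, 3.93 and 3.72. All 10 mice on Western diet except 1 wild-type mouse lay below all 10 mice on normal diet. The diet differences were -1.92 ± 0.34 and -1.78 ± 0.34 (limma adjusted p = 0.00175 and 0.000237), and the interaction was 0.14 ± 0.47 (adjusted p = 0.874), an error too wide to show that they were equal. Got2, its mitochondrial counterpart, fell by 0.85 ± 0.13 in knockout mice and differed by -0.33 ± 0.13 in wild-type mice (adjusted p = 0.156).

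Gls2, the liver glutaminase, fell in both genotypes, by 0.84 ± 0.20 in wild-type and 1.58 ± 0.20 in knockout mice. The wild-type call was lost under median scaling, quantile normalization, normexp, hepatocyte scaling and in the series matrix. Glud1, glutamate dehydrogenase, was lower in knockout than wild-type mice on Western diet by 0.52 ± 0.15 (4 knockout values) and did not pass the test for diet in either genotype.

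Gpt, alanine aminotransferase, which links alanine to pyruvate, went the other way from most of these enzymes. It was at 6.02, 6.04, 6.33, 6.42 and 6.61 in knockout and 5.68, 5.84, 5.59, 6.10 and 5.63 in wild-type mice on normal diet. On Western diet the values were 6.13, 6.19, 5.97, 6.20 and 6.02 in knockout mice against 5.49, 5.21, 5.39, 5.87 and 5.46. The groups overlapped on normal diet through 1 wild-type mouse and did not overlap on Western diet. The genotype differences were 0.52 ± 0.14 and 0.62 ± 0.14 (limma adjusted p = 0.0121 and 0.000832), and both calls ended under median scaling, the first also under normexp. With diet in knockout mice the difference was -0.18 ± 0.14, which did not pass the test, and the value was 0.32 under quantile normalization, 0.31 in the series matrix and 0.60 under hepatocyte scaling.

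The 5 genes of phenylalanine and tyrosine breakdown were all lower in knockout than in wild-type mice on Western diet and all fell with diet in knockout mice. Hpd and Hgd catalyse successive steps of tyrosine degradation, through homogentisate, and Fah catalyses the last step. Hpd was at 4.16 ± 0.47 in knockout mice on Western diet against 6.23 ± 0.21 on normal diet, Hgd at 3.46 ± 0.38 against 5.26 ± 0.08, and Fah at 4.15 ± 0.27 against 5.55 ± 0.13. The differences were -2.07 ± 0.21, -1.80 ± 0.16 and -1.40 ± 0.13 (limma adjusted p = 2.5e-07, 5.27e-08 and 1.18e-07). In wild-type mice Hpd fell by 0.74 ± 0.21 (adjusted p = 0.0438), and Hgd and Fah did not pass the test, at -0.33 ± 0.16 and -0.37 ± 0.13. The Hpd call ended without wild-type mouse 1, 2, 4 or 5 on normal diet, knockout mouse 3 or 5 on normal diet, wild-type mouse 1, 2 or 3 on Western diet or knockout mouse 2 or 5 on Western diet, with -0.85 to -0.60 over all single omissions.

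Qdpr, which regenerates the tetrahydrobiopterin used by phenylalanine hydroxylase, fell by 1.84 ± 0.19 in knockout mice and by 0.82 ± 0.21 in wild-type mice, where outlier spots left 3 wild-type and 4 knockout values on normal diet. The wild-type call ended without 1 of 4 arrays (wild-type mice 2 and 4 on normal and 2 and 3 on Western diet), with differences of -0.95 to -0.64. Tat, the tyrosine aminotransferase that opens the pathway and a classical glucocorticoid-induced gene, had 7.04, 5.90, 5.82, 5.86 and 6.16 in knockout mice on Western diet. In wild-type mice on that diet it had 7.38, 6.90, 5.72, 7.39 and 7.04, so that the groups overlapped: mouse 3 of the wild-type group lay below all 5 knockout mice, and mouse 1 of the knockout group lay among the other wild-type mice. Tat fell by 1.24 ± 0.27 with diet in knockout mice. Its spot was saturated on 2 of the 5 arrays of knockout mice on normal diet, where the signal is a lower limit, so that this fall may be larger than measured. The genotype difference on Western diet was -0.73 ± 0.27. That call ended without wild-type mouse 1, 4 or 5 on Western diet or knockout mouse 2, 3 or 4 on Western diet, with -1.02 to -0.61 over all single omissions.

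The 4 genes of tryptophan breakdown had a median interaction of -1.58, and all 4 passed that test. Tdo2, the dioxygenase that opens the kynurenine pathway, was at 4.08, 2.36, 2.11, 4.21 and 2.79 in knockout mice on Western diet. Their counterparts on normal diet had 5.44, 5.99, 5.86, 6.26 and 5.59, and wild-type mice had 5.70, 5.75, 5.83, 5.93 and 5.94 on normal and 5.36, 5.24, 5.73, 5.92 and 6.13 on Western diet. The other 3 groups overlapped, and knockout mice on Western diet lay apart, with mice 1 and 4 nearer the others. Tdo2 fell by 2.72 ± 0.33 in knockout mice (limma adjusted p = 2.18e-06), a 6.58-fold lower signal, and differed by -0.15 ± 0.33 in wild-type mice (adjusted p = 0.835). The interaction was -2.56 ± 0.47 (adjusted p = 0.000544), with -3.24 to -1.94 within 3 slides.

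Kmo, kynurenine 3-monooxygenase, had the same order of mice in its lowest group, at 1.06, 0.05, -0.27, 1.17 and 0.58 in knockout mice on Western diet. The means were 3.36 ± 0.22 and 2.94 ± 0.27 in wild-type mice on normal and Western diet, and 2.71 ± 0.21 in knockout mice on normal diet. On normal diet every knockout mouse lay below the lowest wild-type mouse, which was at 3.01, and that difference of -0.64 ± 0.23 did not pass the test (limma adjusted p = 0.0568). Kmo fell by 2.20 ± 0.23 with diet in knockout mice. Haao, which acts further down the same route, fell by 1.76 ± 0.17, and Kynu, which splits 3-hydroxykynurenine, by 1.23 ± 0.15. Kynu was also lower in knockout mice on normal diet, by 0.51 ± 0.14 (adjusted p = 0.0154), without overlap, a call that was lost under median scaling, normexp, hepatocyte scaling, the mean of its probes and with outlier spots kept. Kynu had 4 values in knockout mice on Western diet. With outlier spots kept, its diet difference in knockout mice was -0.78 and did not pass the test (adjusted p = 0.054).

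**Figure D3:**
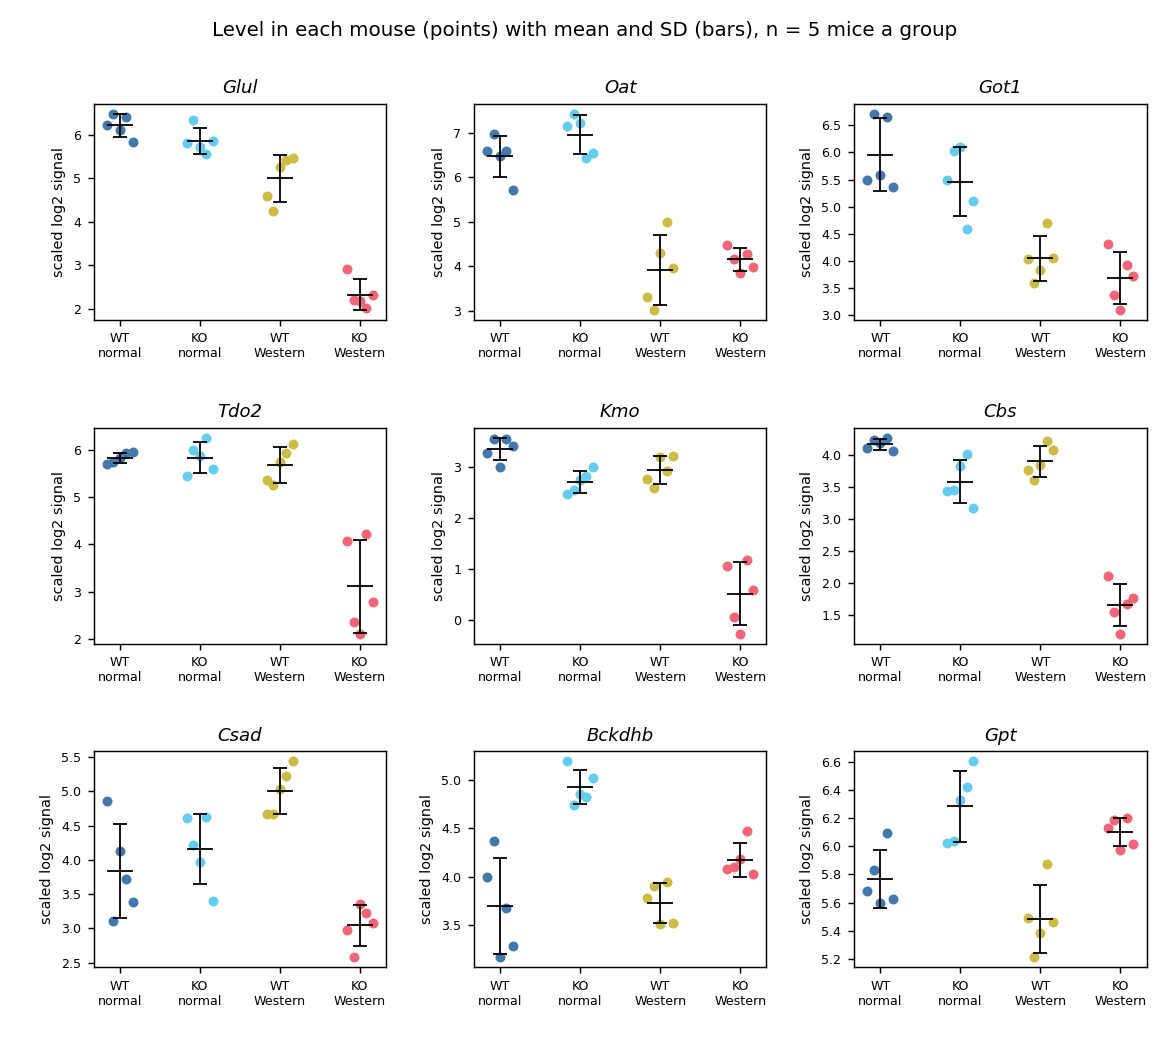
Scaled log2 signal of 9 genes in each mouse (points, 5 per group) with the group mean and SD (bars). Tdo2, Kmo, Cbs and Glul are lowest in all 5 knockout mice on Western diet, Oat and Got1 are low in both Western diet groups, Csad has its highest mean in wild-type mice on Western diet, and Bckdhb and Gpt are higher in knockout mice.

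In histidine breakdown all 3 genes fell on Western diet in knockout mice. Hal, histidine ammonia-lyase, was at 5.08 ± 0.18 in knockout mice on Western diet against 5.92 ± 0.30 on normal diet. In wild-type mice it was at 6.14 ± 0.36 on Western and 5.90 ± 0.14 on normal diet, a difference of 0.24 ± 0.17 that did not pass the test (limma adjusted p = 0.46). The fall in knockout mice was 0.84 ± 0.17 and the interaction -1.08 ± 0.23 (adjusted p = 0.00221). Uroc1 and Ftcd, which act later in the route, fell by 0.72 ± 0.16 and 0.64 ± 0.16 in knockout mice, with 4 wild-type values of Ftcd on each diet. The Ftcd call was lost under median scaling, quantile normalization, normexp, hepatocyte scaling (0.14) and in the series matrix.

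Of the genes of serine, glycine and one-carbon metabolism, Shmt1 fell most. Shmt1, the cytosolic serine hydroxymethyltransferase, was at 3.60 ± 0.15 and 1.86 ± 0.52 in knockout mice fed chow and Western diet, a fall of 1.74 ± 0.20 (limma adjusted p = 1.25e-06). In wild-type mice the levels were 3.19 ± 0.24 and 2.53 ± 0.27, and the difference of -0.66 ± 0.20 did not pass the test (adjusted p = 0.059), though the groups did not overlap. Sds, serine dehydratase, varied widely within groups (SD 0.39 to 0.64) and fell by 1.00 ± 0.33 in knockout mice, a call that ended without mouse 2 of the knockout group on normal diet, where the difference was -0.83. It also ended under quantile normalization (-0.66), normexp (-0.69), hepatocyte scaling (-0.22) and in the series matrix (-0.67). Gldc, of the glycine cleavage system, was lower in knockout mice on both diets, by 0.66 ± 0.21 and 0.92 ± 0.21 (adjusted p = 0.0308 and 0.000916). The call on normal diet ended without wild-type mouse 1, 3, 4 or 5 on normal diet or knockout mouse 1, 2 or 3 on normal diet, with differences of -0.88 to -0.48 over all single omissions.

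The sulfur amino acid genes took different courses. Cbs, cystathionine beta-synthase, which commits homocysteine to cysteine synthesis, was at 2.11, 1.55, 1.21, 1.67 and 1.77 in knockout mice on Western diet. On normal diet these mice had 3.44, 3.44, 3.82, 4.01 and 3.17, against 4.10, 4.22, 4.18, 4.27 and 4.05 in wild-type mice. Wild-type mice on Western diet had 3.77, 3.60, 3.85, 4.21 and 4.07. Knockout mice were below wild-type mice on both diets, without overlap, by 0.58 ± 0.17 on normal and 2.24 ± 0.17 on Western diet (limma adjusted p = 0.02 and 4.73e-09), and the interaction was -1.65 ± 0.24 (adjusted p = 6.63e-05). The call on normal diet ended without mouse 1 or mouse 5 of the knockout group, with -0.69 to -0.48 over all single omissions, and also under median scaling (-0.62), normexp (-0.69), hepatocyte scaling (-0.37) and in the series matrix (-0.48). Cth, cystathionine gamma-lyase, the next enzyme, was on normal diet higher in knockout mice, by 0.84 ± 0.22 (adjusted p = 0.013, 4 knockout values), and fell by 1.62 ± 0.22 on Western diet to 4.80 ± 0.48, against 4.92 ± 0.34 in wild-type mice. The call on normal diet ended under normexp (0.65, adjusted p = 0.463) and with the slide as a block (0.85, adjusted p = 0.057).

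Csad, which makes hypotaurine on the way to taurine, was the one gene of the 39 to rise with diet in wild-type mice. Wild-type mice fed normal chow had 4.87, 3.11, 4.12, 3.72 and 3.38, and those fed the Western diet had 4.67, 4.67, 5.03, 5.22 and 5.44. The Csad levels of knockout mice were 4.61, 4.22, 3.97, 4.63 and 3.40 in the normal diet group, against 2.97, 2.58, 3.36, 3.23 and 3.08 in the Western group. On Western diet wild-type and knockout mice lay apart by more than the range within either group, while on normal diet they overlapped. The diet difference was 1.17 ± 0.29 in wild-type and -1.12 ± 0.29 in knockout mice (limma adjusted p = 0.0225 and 0.00371), and the interaction was -2.29 ± 0.41 (adjusted p = 0.000516), with -2.31 to -1.82 within 3 slides. The rise in wild-type mice did not pass the test without wild-type mouse 2, 4 or 5 on normal diet or mouse 5 on Western diet (0.98 to 1.42 over all omissions) nor with normexp, the mean of its probes or a fit of the 2 groups alone. A further probe well above background on all 20 arrays had diet differences of 1.26 ± 0.31 in wild-type and -1.01 ± 0.31 in knockout mice. The third probe, above background on 13 arrays, had -0.24 ± 0.41 and -1.97 ± 0.41. Cdo1, cysteine dioxygenase, which supplies the substrate of Csad, fell in wild-type mice by 0.61 ± 0.17 and in knockout mice by 0.95 ± 0.17, and was lower in knockout mice on Western diet by 0.42 ± 0.17. The wild-type call ended without wild-type mouse 1, 3, 4 or 5 on normal diet or wild-type mouse 2, 3 or 4 on Western diet, and the genotype call without wild-type mouse 1, 4 or 5 on Western diet or knockout mouse 2, 3 or 5 on Western diet, with -0.67 to -0.52 and -0.54 to -0.30 over all single omissions.

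Oat, ornithine aminotransferase, had the largest diet difference of the 39 genes in wild-type mice. Wild-type mice fed normal chow had 6.59, 6.97, 6.47, 6.58 and 5.72, and those fed the Western diet had 3.31, 3.02, 4.31, 4.99 and 3.96. Knockout mice had 7.15, 7.42, 7.23, 6.43 and 6.53 on normal and 4.49, 4.18, 3.85, 4.29 and 3.98 on Western diet. The 10 mice on Western diet all lay below the 10 on normal diet, and on each diet the genotypes overlapped. The differences were -2.55 ± 0.31 and -2.80 ± 0.31 (limma adjusted p = 5.98e-05 and 8.72e-07), 5.84-fold and 6.94-fold lower signals, and the interaction was -0.25 ± 0.44 (adjusted p = 0.742). Both falls passed the test under every alternative tried. Aldh4a1, which oxidises the product that Oat and proline breakdown share, fell by 0.46 ± 0.12 in wild-type mice and 1.04 ± 0.12 in knockout mice, and was lower in knockout mice on Western diet by 0.37 ± 0.12. The wild-type call ended without wild-type mouse 1, 2, 4 or 5 on normal diet or wild-type mouse 1, 2 or 3 on Western diet (-0.49 to -0.43 over all single omissions), and the genotype call without knockout mouse 3 on Western diet (-0.28). Prodh, proline dehydrogenase, fell by 1.57 ± 0.27 in knockout mice and differed by -0.67 ± 0.27 in wild-type mice (adjusted p = 0.163).

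**Figure D4:**
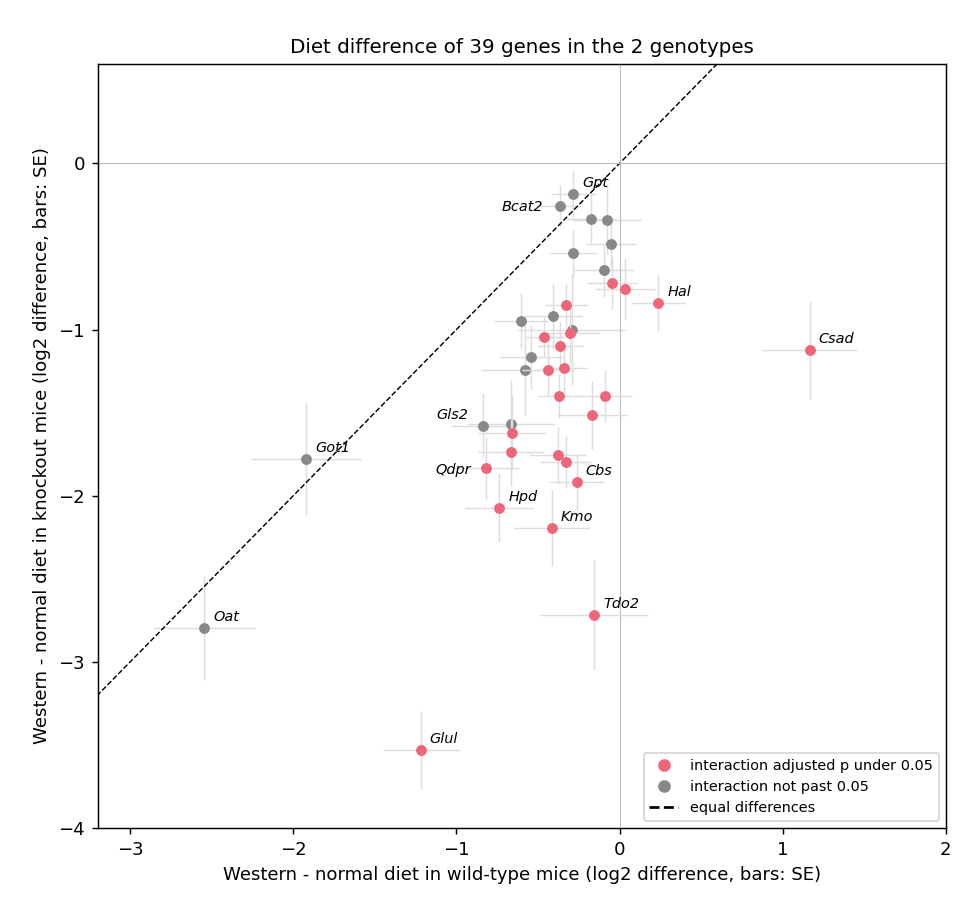
Log2 difference between Western and normal diet in wild-type (x axis) and knockout mice (y axis) for each of the 39 genes, with SE bars, red where the interaction passed an adjusted p of 0.05, and a dashed line where both differences are equal. Oat and Got1 lie near the line, Glul, Tdo2 and Kmo lie far below it, and Csad is the one red point well to the right of 0.

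Branched-chain and lysine breakdown held 2 of the 5 genes that were higher in knockout mice on normal diet, Bckdhb and Bcat2. Bckdhb, the E1 beta subunit of branched-chain ketoacid dehydrogenase, was at 5.19, 4.74, 4.86, 4.82 and 5.02 in knockout mice on normal diet against 3.999, 4.36, 3.16, 3.68 and 3.28 in wild-type mice. On Western diet it was at 4.08, 4.10, 4.18, 4.47 and 4.03 against 3.78, 3.90, 3.51, 3.95 and 3.52. Knockout mice lay above wild-type mice on both diets without overlap. The difference was 1.23 ± 0.19 on normal diet (limma adjusted p = 0.000127), passed the test under every alternative, and was 0.44 ± 0.19 on Western diet (adjusted p = 0.0502). Bckdha, the alpha subunit of the same enzyme, did not share this: it differed by -0.08 ± 0.14 between genotypes on normal diet and was lower in knockout mice on Western diet by 0.82 ± 0.14.

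Bcat2, the mitochondrial branched-chain aminotransferase, was higher in knockout mice on both diets, by 0.61 ± 0.13 and 0.72 ± 0.13 (limma adjusted p = 0.00228 and 1e-04). Its levels were -1.83, -1.46, -1.38, -1.14 and -1.50 in knockout and -1.86, -2.08, -2.15, -1.96 and -2.30 in wild-type mice on normal diet, without overlap. Its probe lies on chromosome 7 in the mm8 annotation of the array, 1.04 Mb from the probe of the deleted Nr1h2, so that alleles carried along with the deletion and the loss of the receptor cannot be told apart for this gene. The 3 probes of Bcat2 also disagreed: on Western diet the others differed by 1.78 ± 0.15 and -0.21 ± 0.24. Ivd, isovaleryl-CoA dehydrogenase of leucine breakdown, and Aass, the first enzyme of lysine breakdown, fell by 1.02 ± 0.18 and 1.51 ± 0.21 with diet in knockout mice. Ivd was lower by 0.46 ± 0.18 in knockout mice on Western diet, a call that ended without wild-type mouse 1 or 4 on Western diet or knockout mouse 1, 2 or 3 on Western diet (-0.56 to -0.35 over all single omissions). In a fit over all probes, a dimmer Ivd probe above background on all 20 arrays differed by -1.11 ± 0.20 in that comparison. The interaction of that probe was -1.35 ± 0.28. Aass had 4 values in 3 of the groups. Its interaction was -1.34 ± 0.30 (adjusted p = 0.00349).

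Other enzymes and carriers of the same pathways were counted in a list of 61 genes, of which 60 were tested. In knockout mice 52 of the 60 were lower and 4 higher on Western diet, and the interaction was lower for 45 and higher for 0 by limma's adjusted p (48 and 1 at an unadjusted p under 0.05). In wild-type mice 12 were lower and 2 higher. Over all genes tested, 27.8% were lower and 22.6% higher with diet in knockout mice. The shares were 2.71% and 3.25% in wild-type mice, and 14.7% and 12.9% for the interaction. Bhmt, which remethylates homocysteine, fell by 1.39 ± 0.33 in wild-type and 3.17 ± 0.33 in knockout mice. Aadat, an aminotransferase of lysine and kynurenine, had an interaction of -2.23 ± 0.26. Aldh18a1, of proline synthesis, was higher in knockout mice on Western diet by 2.67 ± 0.51.

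Genes of amino acid synthesis and of the response to amino acid deprivation were more often higher than lower in knockout mice. Of 16 tested, 10 were higher and 1 lower in knockout mice on Western diet, and of 17 tested 6 were higher and 1 lower on normal diet. Over all genes tested, the genotype shares were 25% higher and 32.7% lower on Western diet. On normal diet they were 11.3% higher and 8.37% lower. Asns, asparagine synthetase, was higher by 2.16 ± 0.37 on normal and 2.85 ± 0.37 on Western diet, and Phgdh, which opens serine synthesis, by 1.30 ± 0.41 and 3.63 ± 0.41. With diet in wild-type mice 2 of 17 fell, where 2.71% of all genes did, among them Asns by 1.41 ± 0.37. The highest difference there, that of Psat1 of serine synthesis, was 1.20 ± 0.46 and did not pass the test (limma adjusted p = 0.141). Genes known to be induced by glucocorticoids were higher for 7 of 13 and lower for 2 in knockout mice on Western diet, and Fkbp5 was higher by 2.80 ± 0.48. On normal diet 4 of the 13 were higher and 0 lower, and Fkbp5 was already higher by 2.21 ± 0.48. With diet in knockout mice 3 were higher and 3 lower, near the shares over all genes tested (22.6% higher and 27.8% lower). Among the lower ones Tsc22d3 fell by 0.96 ± 0.36 and Arrdc2 by 0.86 ± 0.26.

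Transcription factors and signalling genes that act on these enzymes, or on the zonation of the liver lobule, were lower in knockout mice on Western diet for 15 of 24 and higher for 2. Over all genes tested the shares were 32.7% lower and 25% higher. Klf15, a regulator of amino acid catabolism, was lower by 1.42 ± 0.20 with an interaction of -1.66 ± 0.28, and Cebpa was lower by 1.37 ± 0.26 with an interaction of -1.20 ± 0.37. Over the 24 genes the interaction was lower for 7 and higher for 0, with values from -1.66 to 1.66. Among all genes it was lower for 14.7% and higher for 12.9%. Lgr5, a Wnt pathway receptor of pericentral hepatocytes, fell with diet by 1.59 ± 0.36 in wild-type and 1.63 ± 0.36 in knockout mice. In a list of 20 other pericentral genes that includes Lgr5, 14 fell in wild-type mice (median -1.16) and 17 in knockout mice (median -2.03) on Western diet. Of 13 other periportal genes, 1 fell and 1 rose in wild-type mice (median -0.25), and 8 fell and 2 rose in knockout mice (median -0.56). Over all genes tested, 2.71% fell and 3.25% rose in wild-type mice, and 27.8% fell and 22.6% rose in knockout mice. Among the measured enzymes Glul and Oat are themselves pericentral. The largest falls in wild-type mice were those of Oat (-2.55 ± 0.31), Got1 (-1.92 ± 0.34), Glul (-1.22 ± 0.23), Gls2 (-0.84 ± 0.20) and Qdpr (-0.82 ± 0.21). Zones were not assigned to the measured enzymes as a set, and a link of these falls to zone was not tested.

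Mice of a group differed together across these genes. In knockout mice on Western diet, mouse 3 was lowest for 27 of the 35 genes with a value in all 5 mice, and mouse 4 was highest for 22. In wild-type mice on Western diet, mouse 2 was lowest for 22 of 36 genes and mouse 4 highest for 25. In knockout mice on normal diet, mouse 1 was lowest for 24 of 36. Mouse 4 of the wild-type group on normal diet was highest for 23 of 35, and its array had the lowest 75th percentile (170.3). Wild-type mouse 4 on Western diet also had the lowest 75th percentile of its group (261.1). So did knockout mouse 3 on Western diet (339.7), which was low for most genes. A part of the scaling in these shared shifts was not tested. The genes are therefore not independent of each other. Without mouse 3 of the knockout group on Western diet, 24 genes instead of 29 were lower than in wild-type mice.

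In knockout mice 30 of the 35 genes that fell with diet did so without overlap of the groups, against 66.4% of all genes called in that comparison. All 35 had the same sign on every slide that held both groups, as had 88.8% of all called genes. For genotype on Western diet 24 of 31 called genes had no overlap and 26 kept their sign on every shared slide, against 72% and 91.2% of all called genes. For diet in wild-type mice these were 8 and 9 of 9, against 77.8% and 94.3%. On normal diet 5 of the 8 called genotype differences had no overlap and 7 kept their sign, against 63.3% and 91.7%. Whether or not they were called, 30 of the 39 genes had no overlap between diets in knockout mice, against 34.4% of all genes tested. The same held for 25 between genotypes on Western diet (42.3%), 11 between diets in wild-type mice (8.16%) and 9 between genotypes on normal diet (14.9%).

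Some calls depended on the setting. Of the 35 falls with diet in knockout mice, normexp ended 14, those of Arg1, Ass1, Bckdha, Bckdhb, Cdo1, Cps1, Csad, Ftcd, Got2, Hal, Ivd, Nags, Sds and Uroc1. Hepatocyte scaling ended 15, those of Aldh4a1, Arg1, Ass1, Bckdhb, Cdo1, Cps1, Csad, Ftcd, Got2, Hal, Ivd, Nags, Sds, Tat and Uroc1. Quantile normalization ended those of Arg1, Cdo1, Cps1, Ftcd, Nags and Sds. Of the 31 genotype calls on Western diet, normexp ended 15, those of Aldh4a1, Arg1, Ass1, Bcat2, Bckdha, Cdo1, Ftcd, Gls2, Glud1, Got2, Ivd, Nags, Shmt1, Tat and Uroc1. Hepatocyte scaling ended 18, those of Aass, Aldh4a1, Arg1, Ass1, Bckdha, Cdo1, Fah, Ftcd, Gldc, Gls2, Glud1, Got2, Hal, Ivd, Nags, Shmt1, Tat and Uroc1. The series matrix ended 9, those of Aldh4a1, Arg1, Ass1, Cdo1, Ftcd, Glud1, Ivd, Nags and Tat. Of the 9 diet calls in wild-type mice, normexp ended 7 and left those of Got1 and Oat. Of the 8 genotype calls on normal diet, normexp ended 7 and left that of Bckdhb. With the slide as a block, the calls of Arg1 and Cdo1 for genotype on Western diet, Aldh4a1 and Hpd for diet in wild-type mice and Cth and Gldc for genotype on normal diet did not pass the test.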

How the data were processed

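RNA from 20 livers, in 4 groups of 5 mice, was measured on single-colour (Cy3) arrays spread over 6 slides. Arrays with the same recorded scan date were taken to share a slide. The deposited scanner tables hold intensity, the processed signal after background subtraction by Feature Extraction 9.5.3.1, per the file headers. The deposited series matrix holds log2 values from the authors, whose normalization is not given in the sources used here beyond limma being named in the submitters' processing notes.

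From the processed intensity, log2 values minus each array's log2 75th percentile over 43379 non-control spots were computed. Spots marked as outliers were dropped, which left 1855 probe values missing, and spots of a probe were averaged. The brightest probe stood for a gene. Genes were kept where 4 or more of the 5 arrays of some group had them above background (17559 genes). One fit of the 4 group means with limma 3.58.1 (lmFit, eBayes; R 4.3.3) gave 5 two-sided comparisons, each with Benjamini-Hochberg adjustment over all genes tested. Matplotlib 3.10.9 under Python 3.11.15 drew the figures. The procedure was tested on simulated data. The labels describe replicates as different mice, and the number of arrays limits the precision.

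Every member gene may be named, and from each other list up to 6 genes with the largest absolute difference in a comparison. One gene of the other lists is not reported here. The members and lists were chosen with earlier results of these data known. Replicate numbers were shared by the groups. Deviations of same-numbered mice correlated above 0.1 in 4 of 5 pairs for diet in wild-type and 3 of 5 for diet in knockout mice. For genotype this held in 2 of 5 pairs on Western and 0 on normal diet (r from -0.378 to 0.489 over all comparisons). Between diets, same-numbered mice shared a slide in all knockout pairs and in wild-type pairs 2 to 5. The main fit did not treat them as pairs, and fits with the slide or the replicate number as a block were alternatives. Alternatives covered median scaling, quantile normalization, normexp background correction with offset 50, the series matrix, 2 other filters, the mean of probes, outlier spots kept, slide and replicate blocks, a fit of the compared groups alone, leaving out each array, and scaling to hepatocyte markers, the last added after the data were seen.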

Additional observations from a re-analysis of the deposited data

Results flagged for a closer look

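In 4 of 155 groups of 4 or 5 values, 1 mouse stood apart from the rest of its group by Dixon's criterion, where chance gives about 1 in 20. Gls2 was at 6.58 in mouse 3 of the knockout group on normal diet, against 6.37 in the next mouse. Glud1 was at 7.96 in mouse 4 of the wild-type group on normal diet, against 7.70. In knockout mice on Western diet, Tat was at 7.04 in mouse 1, against 6.16, and Hal was at 5.39 in mouse 4, against 5.05.

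The diet difference differed between the genotypes for 23 of the 39 genes by limma's interaction term at an adjusted p under 0.05, each with a more negative difference in knockout mice. The interaction values were -1.31 for Otc and -0.80 for Asl of the urea cycle, and -2.31 for Glul and -0.53 for Got2 of glutamine and glutamate metabolism. In tyrosine breakdown they were -1.34 for Hpd, -1.47 for Hgd, -1.03 for Fah and -1.02 for Qdpr. In tryptophan breakdown they were -2.56 for Tdo2, -1.78 for Kmo, -0.89 for Kynu and -1.38 for Haao. Hal had -1.08 and Uroc1 -0.67 in histidine breakdown, and Shmt1 had -1.07. Among sulfur amino acid genes the values were -1.65 for Cbs, -0.96 for Cth and -2.29 for Csad. Aldh4a1 had -0.58, Bckdha -0.73, Bckdhb -0.79, Ivd -0.71 and Aass -1.34. Some of these calls ended when 1 array was left out. For Cth this was knockout mouse 3 on normal diet (-0.91). For Uroc1 this was wild-type mouse 1 or 2 on normal diet, knockout mouse 3 on normal diet, wild-type mouse 4 on Western diet or knockout mouse 3 on Western diet (-0.76 to -0.56 over all single omissions). For Bckdhb this was wild-type mouse 3 or 5 on normal diet, knockout mouse 1 or 5 on normal diet, wild-type mouse 2 or 4 on Western diet or knockout mouse 2 or 5 on Western diet (-0.96 to -0.66). For Got2 this was wild-type mouse 1, 2, 3 or 5 on normal diet, knockout mouse 2, 3, 4 or 5 on normal diet, wild-type mouse 3 or 4 on Western diet or knockout mouse 1, 2 or 3 on Western diet (-0.63 to -0.46). For Ivd this was wild-type mouse 1, 2, 3 or 5 on normal diet, knockout mouse 3, 4 or 5 on normal diet, wild-type mouse 1, 4 or 5 on Western diet or knockout mouse 1, 2, 3 or 5 on Western diet (-0.81 to -0.59). Across settings, normexp ended 18 of the 23 and left those of Cbs, Csad, Glul, Otc and Tdo2. Hepatocyte scaling ended 12, those of Aldh4a1, Asl, Bckdha, Bckdhb, Cth, Got2, Hal, Ivd, Kynu, Qdpr, Shmt1 and Uroc1, and median scaling ended 9, those of Aldh4a1, Asl, Bckdha, Bckdhb, Cth, Got2, Ivd, Qdpr and Uroc1. With the slide as a block the call of Cth ended (-0.95).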

How the results depend on the processing

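Of the calls reported, 18 of 35 for diet in knockout mice, 11 of 31 for genotype on Western diet, 5 of 23 for the interaction, 2 of 9 for diet in wild-type mice and 1 of 8 for genotype on normal diet passed in every alternative. Counts of genes called, higher and lower, moved by over 1.5 times in these cases. For genotype on normal diet they were 3 higher and 0 lower under median scaling, 1 and 0 with normexp, and 0 lower under hepatocyte scaling. For genotype on Western diet 1 was higher under median scaling, 1 higher and 15 lower with normexp, and 6 higher and 11 lower under hepatocyte scaling. For diet in wild-type mice 3 were lower under median scaling, quantile normalization, the series matrix and hepatocyte scaling, 5 without a filter, and 0 higher and 2 lower with normexp. The rise of Csad was lost, leaving 0 higher, with the mean of probes and with only the compared groups. For diet in knockout mice 1 was higher under quantile normalization and in the series matrix, 21 were lower with normexp, and 3 were higher and 20 lower under hepatocyte scaling. The interaction was lower for 14 under median scaling and 5 with normexp, higher for 1 under quantile normalization, and higher for 1 and lower for 11 under hepatocyte scaling. The cause of these shifts was not tested. The background means fitted by normexp ran from -471 to -4.64 units. The share of higher calls over all genes for diet in wild-type mice was 54.5%, and 66.6% under median scaling. Hepatocyte scaling moved the median of all genes to 0.53 for genotype on Western diet and 0.66 for diet in knockout mice, with 87.6% and 90.2% of calls higher. Under it, values for genotype on Western diet changed sign for Cps1 (0.47), Arg1 (0.22), Nags (0.12), Glud1 (0.17), Got2 (0.085), Uroc1 (0.036), Ftcd (0.0631), Shmt1 (0.0217), Cth (0.57), Cdo1 (0.27), Aldh4a1 (0.33) and Ivd (0.23). Values for diet in knockout mice changed sign for Cps1 (0.24), Nags (0.30), Glud1 (0.45), Gpt (0.60), Uroc1 (0.0637), Ftcd (0.14), Bcat2 (0.53) and Bckdhb (0.0273). Under quantile normalization Cps1 (0.0484) and Gpt (0.32), and in the series matrix Gpt (0.31), changed sign for diet in knockout mice. Leaving out 1 array gave 4 to 5 higher and 1 to 5 lower for genotype on normal diet, 2 to 3 and 24 to 30 for genotype on Western diet, 0 to 1 and 4 to 10 for diet in wild-type mice, 0 and 34 to 38 for diet in knockout mice, and 0 and 19 to 25 for the interaction. On normal diet the lowest count, 1 lower, was without knockout mouse 1 of that diet, and 5 were lower without knockout mouse 1 or 3 on Western diet. In wild-type mice the diet count fell to 5 or 4 lower without mouse 1, 2, 4 or 5 on normal diet or mouse 2 or 3 on Western diet. With the replicate number as a block, 35 genes were lower with diet in knockout mice and 30 lower with genotype on Western diet, and 0 calls were lost in any comparison. With the slide as a block, 2 calls were lost for genotype on normal diet, 2 for genotype on Western diet, 2 for diet in wild-type mice, 1 for the interaction and 0 for diet in knockout mice.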
